A study of Mus musculus with 6 samples.

Results

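The cell cycle pathway genes of mouse liver were described here across 3 wild type and 3 Cgref1 knockout samples. They are the 125 genes, of 15953 in the deposited expression table, whose pathway annotation holds the KEGG name Cell cycle. No expression value entered this choice. The libraries were made from liver of C57BL/6 mice, and the groups differed in genotype alone as far as the labels say. They give no age, sex, treatment or knockout design. The labels call the 3 libraries of each group biological replicates, with no word on separate animals or litters, so p-values measure only how much these libraries vary, which may be technical.

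The cell cycle is the ordered programme by which a cell copies its DNA and divides. Cyclins switch on cyclin-dependent kinases, inhibitors hold these kinases back, and the retinoblastoma proteins keep E2F transcription factors silent until the kinases release them. E2F factors turn on the genes of DNA replication, while a later wave of transcription supplies the genes of mitosis. The anaphase-promoting complex and the SCF complex then mark cyclins and other regulators for destruction. Hepatocytes of an adult liver mostly rest outside the cycle and can re-enter it after tissue loss. Of the 125 genes, 120 were sorted by role into 11 groups, and 5 were given no role.

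These 5 carried the same set of pathways as a known cycle gene. Aktip shared its 4 pathways with Rbl2, whose gene it overlaps, and Paqr4 shared its 3 with the overlapping Pkmyt1. E030030I06Rik, Gm16505 and Gm2832 shared theirs with Cdk6. They were kept as members, and 3 of the 5 passed the filter on low counts described next.

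Library totals were 17627731 to 18366444 counts. Of the 125 genes, 107 had enough counts for a test of knockout against wild type. The 18 that did not were Bub1, Ccnb2, Cdc25c, Cdc6, Cdc7, Cdkn2a, Cdkn2b, Chek1, Espl1, Gadd45b, Gm16505, Gm2832, Orc1, Pkmyt1, Plk1, Smc1b, Tgfb2 and Ttk. Cgref1 itself did not check the genotype. Wild type replicates 1, 2 and 3 held 7, 7 and 19 of its counts and the knockout replicates 7, 12 and 10, so the genotype rests on the labels. Without the filter its log2 fold change was -0.12 ± 0.52 (SE), with a 95% interval from -1.24 to 1.01.

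The labels name hepatocytes as the cell type, and 6 hepatocyte markers summed to 68300 to 97950 CPM (TMM-scaled counts as a rate per library). Markers of other cells were also present. Erythroid markers gave the largest of these sums, at 2109, 2523 and 3517 CPM in wild type and 2758, 2515 and 1765 CPM in knockout. Over the 6 libraries sinusoidal endothelial markers summed to 168.2 to 202.2 CPM and stellate cell markers to 86.8 to 116.0 CPM. Bile duct markers summed to 23.1 to 35.6 CPM and smooth muscle markers to 10.2 to 15.6 CPM. Kupffer cell markers, which stand for the resident macrophages, summed to 194.1 to 214.8 CPM in wild type and 246.2 to 258.2 CPM in knockout. Markers of T cells summed to 3.09 to 4.20 CPM, of B cells to 1.74 to 5.10 CPM and of neutrophils to 1.10 to 2.18 CPM over the 6 libraries. No tested marker passed, but the filter on low counts left many untested. It kept 2 of 11 intestinal, 1 of 6 neutrophil, 2 of 6 T cell and 2 of 5 B cell markers. Intestinal markers summed to 130.6, 76.03 and 127.9 CPM in wild type and to 75.67, 82.76 and 61.97 CPM in knockout, mostly from Fabp2. Reg3b, from the intestinal list, had counts of 44, 0 and 32 in wild type against 0 in each knockout library. Vil1 (15, 1 and 18 in wild type), Krt20 (8, 1 and 22) and Reg3g (26, 2 and 37) had a similar order. Other markers differed, with 33, 2 and 6 in wild type for Sis, 2, 0 and 31 for Muc2 and 0, 0 and 5 for Cdx1. Lgals4 had 33, 47 and 75 against 39, 24 and 24 in knockout. Wild type replicates 1 and 3 thus stood apart in the sum and in Reg3b, but not in every marker. Fabp2, which makes up most of the sum, kept 73.4, 81.4 and 60.5 CPM in the knockout libraries. Reg3b, Reg3g, Krt20 and Sis had 0 counts in those libraries, so the sum cannot be read as an amount of intestinal tissue. Role medians without wild type replicates 1 and 3 are given below. In bulk liver, fewer cells of a type and less RNA per cell cannot be told apart.

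Upstream sequences are shown first because they carry the motifs through which the replication and mitosis genes are known to be controlled. RefSeq promoters of GRCm38.p6 were found for 100 of the 125 genes, and the 250 bases before each start were read on both strands. E2F sites were searched as TTTGGCGC, TTTCCCGC, TTTCGCGC or TTTGCCGC. They were found in 17 of the 100 genes, or 17%, against 2.16% of 27025 genes in the same window. The cell cycle homology region, the element of many mitotic genes, was searched as TTTGAA and found in 20 of the 100, or 20%, against 18.3% of all genes. Such a match is a run of letters, not a site shown to be bound, and a match on each strand can overlap into 1 longer run.

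The E2F letters were found in 6 of 16 replication genes with a promoter, 3 of 8 kinases and regulators and 3 of 10 retinoblastoma and E2F genes. None of the 14 mitosis genes with a promoter held them, and 4 of those 14 held TTTGAA. Printed first are 3 subunits of the MCM helicase, which unwinds DNA at replication origins. Of its 6 genes, these 3 had wild type replicate 1 as their highest library, and a link of this to the letters was not tested. Capitals mark the E2F letters on either strand. Mcm5 lies at chr8:75109259-75109508 on the plus strand, Mcm6 at chr1:128359706-128359955 on the minus strand and Mcm7 at chr5:138171884-138172133 on the minus strand.
Mcm5: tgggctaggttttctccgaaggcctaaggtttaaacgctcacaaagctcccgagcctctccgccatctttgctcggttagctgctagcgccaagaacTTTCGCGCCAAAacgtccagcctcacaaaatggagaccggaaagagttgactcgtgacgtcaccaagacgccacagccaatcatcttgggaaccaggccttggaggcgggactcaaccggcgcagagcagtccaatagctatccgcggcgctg
Mcm6: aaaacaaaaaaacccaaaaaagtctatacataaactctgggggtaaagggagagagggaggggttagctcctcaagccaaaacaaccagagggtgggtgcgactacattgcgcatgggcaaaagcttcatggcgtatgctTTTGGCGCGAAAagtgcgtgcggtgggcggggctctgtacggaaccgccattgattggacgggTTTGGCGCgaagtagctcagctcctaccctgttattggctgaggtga
Mcm7: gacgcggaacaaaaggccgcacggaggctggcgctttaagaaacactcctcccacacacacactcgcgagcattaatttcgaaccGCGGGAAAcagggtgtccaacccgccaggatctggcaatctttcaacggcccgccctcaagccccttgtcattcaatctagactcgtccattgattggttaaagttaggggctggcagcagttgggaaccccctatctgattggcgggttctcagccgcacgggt

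In Mcm5 the letters overlap on the 2 strands, with first bases 153 bases (plus) and 149 bases (minus) before the start. Mcm6 has the same arrangement at 110 and 106 bases and a further match at 47 bases. Mcm7 has 1 match, on the opposite strand, 165 bases before the start. The next sequences come from Cdk1, the mitotic kinase, Ccnb2, a mitotic cyclin, and Cdc20, an activator of the anaphase-promoting complex, which had at most 27 counts in any library. Capitals mark the E2F letters and TTTGAA. Cdk1 lies at chr10:69352913-69353162, Ccnb2 at chr9:70421555-70421804 and Cdc20 at chr4:118437344-118437593, each on the minus strand.
Cdk1: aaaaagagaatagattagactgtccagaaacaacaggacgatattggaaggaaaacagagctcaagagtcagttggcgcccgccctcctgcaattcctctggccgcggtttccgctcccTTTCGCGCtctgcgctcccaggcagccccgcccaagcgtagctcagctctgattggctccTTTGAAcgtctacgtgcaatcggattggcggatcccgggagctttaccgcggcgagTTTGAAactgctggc
Ccnb2: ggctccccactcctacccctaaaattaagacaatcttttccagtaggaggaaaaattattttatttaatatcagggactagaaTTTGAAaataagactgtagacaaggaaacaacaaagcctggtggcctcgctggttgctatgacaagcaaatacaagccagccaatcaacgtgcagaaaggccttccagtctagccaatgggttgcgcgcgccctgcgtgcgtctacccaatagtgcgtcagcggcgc
Cdc20: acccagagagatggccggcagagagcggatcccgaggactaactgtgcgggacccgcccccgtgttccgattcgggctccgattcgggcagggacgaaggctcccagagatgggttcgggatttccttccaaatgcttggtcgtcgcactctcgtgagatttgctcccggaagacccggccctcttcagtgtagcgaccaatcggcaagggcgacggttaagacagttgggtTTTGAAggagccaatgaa

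Cdk1 held both motifs, an E2F match 131 bases before the start and TTTGAA at 71 and 15 bases. Ccnb2 held TTTGAA at 167 bases and Cdc20 at 18 bases. Members with the E2F letters had a median level of 1.36 TPM (transcripts scaled for length and library), against 4.12 TPM in the 83 without. Of these, 5 of 17 with the letters and 20 of 83 without were below 1 TPM. Members with TTTGAA had a median of 1.29 TPM, against 4.73 TPM in the 80 without, and 9 of 20 against 16 of 80 were below 1 TPM. These medians describe these genes and were not tested.

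Levels are compared between genes as the mean TPM over the 6 libraries, which corrects for transcript length. The most abundant members were ubiquitin ligase and 14-3-3 genes, and many mitosis genes were scarce. Of the 125 genes, 32 were below 1 TPM, 58 between 1 and 10 TPM and 35 at 10 TPM or more. The highest were Skp1a, the adaptor of SCF ubiquitin ligases, at 178.3 TPM, Ywhae, a 14-3-3 protein that binds phosphorylated partners, at 155.1 TPM, and Anapc13, a subunit of the anaphase-promoting complex, at 147.1 TPM.

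**Figure D1:**
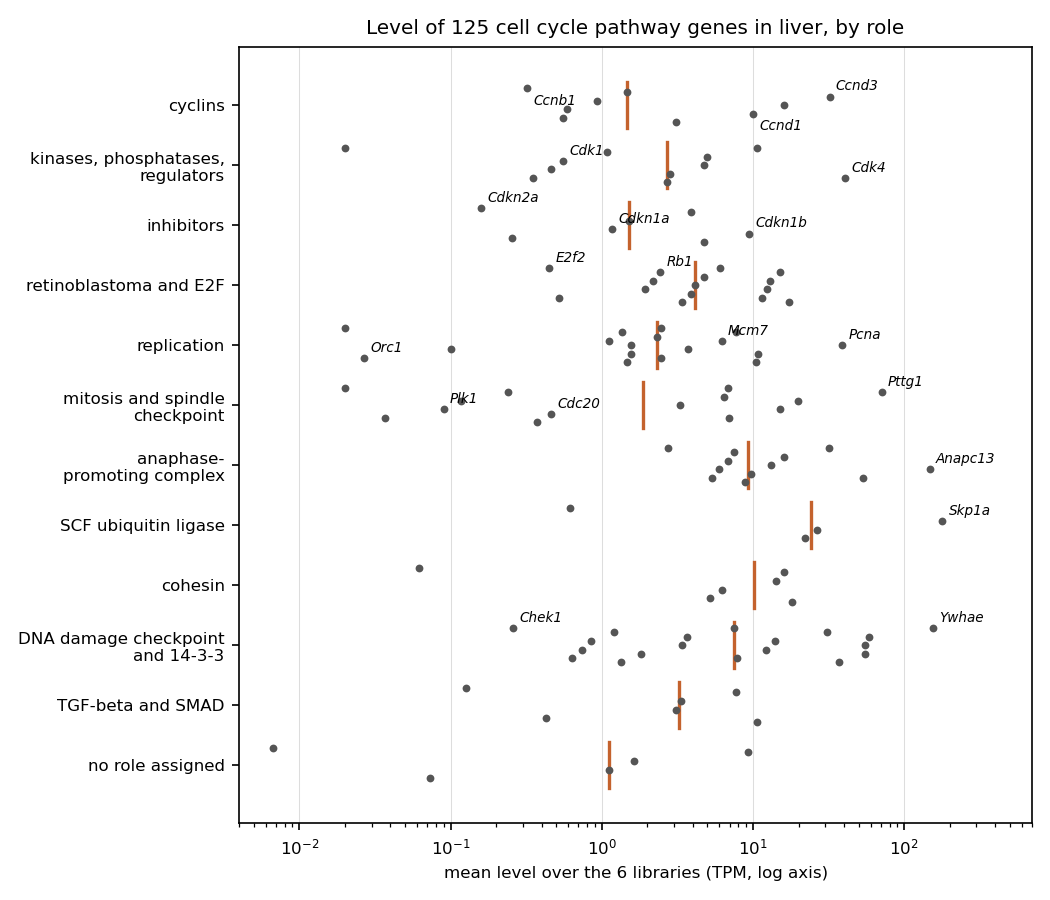
Mean level of each of the 125 genes over the 6 libraries (TPM, log axis), in rows by role; each point is 1 gene and each vertical bar the median of its role. Mitosis genes reach from 71.0 TPM for Pttg1 to under 0.1 TPM for Plk1, while all 12 genes of the anaphase-promoting complex lie above 1 TPM.

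Mitosis genes showed the widest spread of any role drawn. Of 14, 7 were below 1 TPM, and the median was 1.87 TPM. Plk1, the polo-like kinase that drives mitotic entry, had a mean of 0.09 TPM, from counts of 2, 3 and 1 in wild type against 2, 3 and 4. Bub1b, a spindle checkpoint kinase, was at 0.238 TPM and Cdc20 at 0.463 TPM. In contrast Pttg1, the securin that restrains separase, reached 71.0 TPM, and Bub3, another checkpoint protein, 19.9 TPM.

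Cyclin levels ran downward from G1 to mitosis. The G1 cyclins led, with Ccnd3 at 32.1 TPM, Ccnd1 at 9.95 TPM and Ccnd2 at 3.11 TPM, beside Ccnh at 16.1 TPM, the cyclin of the kinase that activates other cyclin-dependent kinases. The S phase cyclins were lower, with Ccne1 at 1.47 TPM, Ccne2 at 0.928 TPM and Ccna2 at 0.590 TPM. Mitotic Ccnb2 was at 0.550 TPM and Ccnb1 at 0.322 TPM. Among their kinases, Cdk4, a partner of the D cyclins, was at 40.6 TPM, and Cdk6, the other such partner, was at 2.82 TPM. Cdk2, the partner of the E cyclins, lay above Cdk6 at 4.75 TPM, and mitotic Cdk1 was at 0.557 TPM. Neighbours such as Ccna2 and Ccnb2 are close in this order, and their levels were not tested against each other.

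Inhibitors were low to moderate. Cdkn1b (p27) led at 9.47 TPM, followed by Cdkn2c (p18) at 4.71 TPM, while Cdkn1a (p21), the p53 target, was at 1.17 TPM. The Ink4 genes Cdkn2a and Cdkn2b were near the floor. Cdkn2a counts were 0, 1 and 2 in wild type against 0, 2 and 4 in knockout, and Cdkn2b had 2, 11 and 4 against 3, 3 and 2. A library with a count of 0 allows up to 3 counts, so no difference in Cdkn2a was detectable at this depth.

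In the replication group, Pcna, the sliding clamp of DNA polymerases, led at 38.8 TPM. The origin recognition genes Orc5 at 10.8 TPM and Orc3 at 10.5 TPM came next. The MCM subunits lay between 1.36 TPM for Mcm5 and 6.20 TPM for Mcm7. The 3 lowest of the group were Cdc6 at 0.100 TPM, Orc1 at 0.0267 TPM and Cdc7 at 0.0200 TPM, while Dbf4, the partner of Cdc7, was at 1.56 TPM. The anaphase-promoting complex had a median of 9.28 TPM, cohesin 10.2 TPM, the DNA damage and 14-3-3 group 7.51 TPM, and the 4 SCF genes 24.2 TPM. The retinoblastoma and E2F group had a median of 4.12 TPM, led by the deacetylases Hdac1 at 17.2 TPM and Hdac2 at 15.0 TPM.

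The comparison of genotypes asked how hepatic expression of these genes differed without Cgref1. In edgeR's quasi-likelihood test none of the 107 tested genes passed a Benjamini-Hochberg adjusted p of 0.05 over all genes tested, and the smallest adjusted p was 0.903. Over the whole table, 1 of 12033 genes passed, or 0.00831%. DESeq2 also called 0 of the 107, beside 28 genes or 0.233% of the whole table, and limma-voom called 0, beside 1 gene. At an unadjusted p under 0.05, edgeR picked 2 members that were higher in knockout, Ccnd3 and Cdc45, and 1 that was lower, Hdac2. That is 3 of 107, beside 5.15% of all tested genes (2.95% higher and 2.2% lower). With library totals as scaling, 0 members were higher and 7 lower at that threshold. These counts were not set beside their share over all genes, whose values also moved down. Under that scaling the median log2 fold change of all tested genes was -0.084, against -0.002 with TMM scaling. With DESeq2 as the test, Cdc45 and Hdac2 were not under an unadjusted p of 0.05. In the authors' deposited table no member had a q-value under 0.05, and the smallest was 0.990. Its 2 members with an unadjusted DESeq2 p-value under 0.05 were Ccnd1 (0.0164) and Ccnd3 (0.0175). Cdc45 was at 0.125 and Hdac2 at 0.0597 there.

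Fold changes were small. On the log2 scale, knockout over wild type, they ran from -0.61 for Cdc14a to 0.71 for Ccne1, with a median standard error of 0.155. The median was -0.03, beside -0.00 over all tested genes, with 44 values above 0 and 63 below. Scaling by library totals moved this split to 30 above and 77 below and the median to -0.11, beside -0.08 over all genes. Without wild type replicate 1 the split was 56 to 51 and the median 0.01. The 95% interval lay within a fold of 2 in either direction for 91 of the 107 genes, or 85.1%, beside 85.6% of all tested genes, and within a fold of 1.5 for 61.

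**Figure D2:**
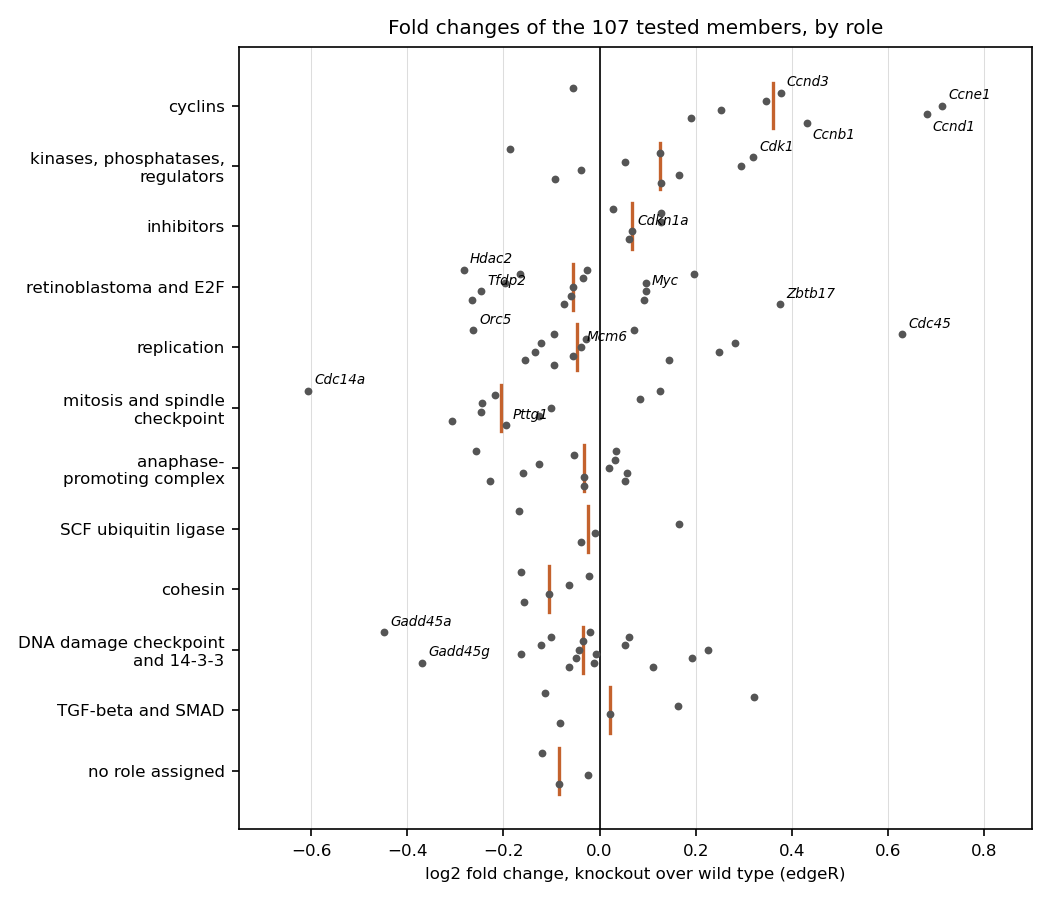
Log2 fold change, knockout over wild type, of the 107 tested genes from edgeR, in rows by role; each point is 1 gene, each short bar the median of its role, and the vertical line no difference. Of 8 cyclins, 7 lie above 0 and their median is 0.36, while 8 of 10 mitosis genes lie below 0; no gene passed the test.

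Between groups, 8 members had libraries that did not overlap. Orc6, Cdc45, Zbtb17 and E2f1 were higher in every knockout library than in any wild type library, and Cdk2, Ep300, Smc3 and Hdac2 were lower. This is beside 10.8% of all tested genes, 6.19% higher and 4.63% lower.

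Cyclins gave the highest median of the role groups in the main fit. Of 8 tested, 0 passed and 7 had values above 0, with a median log2 fold change of 0.36. Without wild type replicate 2 it was 0.163 with 6 above 0, just under the medians of kinases and of inhibitors, each 0.169. With wild type replicates 1 and 3 both left out the cyclin median was 0.40 with 7 above 0. Counts for the mitotic cyclins were low, so this median rests on genes of very different precision.

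Ccnd3 (chr17:47504831-47599962) encodes cyclin D3, a G1 cyclin. It had 31.0, 36.6 and 40.8 CPM in wild type replicates 1, 2 and 3 and 40.5, 50.5 and 49.7 CPM in knockout. The groups touch, since knockout replicate 1 lay just under wild type replicate 3. The log2 fold change was 0.38 ± 0.13 (SE, n = 3 per group), with a 95% interval from 0.09 to 0.67 and an edgeR adjusted p of 0.903.

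Ccnd1 (chr7:144929931-144939937), the mitogen-induced cyclin D1, had 19.5, 17.8 and 25.4 CPM in wild type and 18.6, 32.1 and 49.8 CPM in knockout. Knockout replicate 3 was the highest library and knockout replicate 1 lay within the wild type range. Its log2 fold change was 0.68 ± 0.37 (SE), with an interval from -0.23 to 1.59 and an edgeR adjusted p of 0.974. It was 0.28 without knockout replicate 3 and 0.97 without knockout replicate 1. The third D cyclin, Ccnd2, had 11.4, 11.4 and 15.4 CPM against 13.6, 15.6 and 14.4 CPM, which overlap.

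Ccne1 (chr7:38097984-38107490) encodes cyclin E1, the partner of Cdk2 at the start of DNA synthesis. It had 0.773, 2.28 and 1.42 CPM in wild type and 1.75, 3.25 and 2.37 CPM in knockout, with overlap through wild type replicate 2. Its log2 fold change was 0.71 ± 0.39 (SE), with an edgeR adjusted p of 0.974. Ccne2 was at 0.25 ± 0.25 (SE) and Ccna2, the S phase cyclin, at 0.35 ± 0.31 (SE) on the same scale. Ccnb1 counts were 17, 1 and 6 in wild type against 12, 8 and 11, and Ccnb2 had 13, 7 and 9 against 8, 10 and 14. In both mitotic cyclins the wild type libraries alone spanned the knockout values or nearly so.

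**Figure D3:**
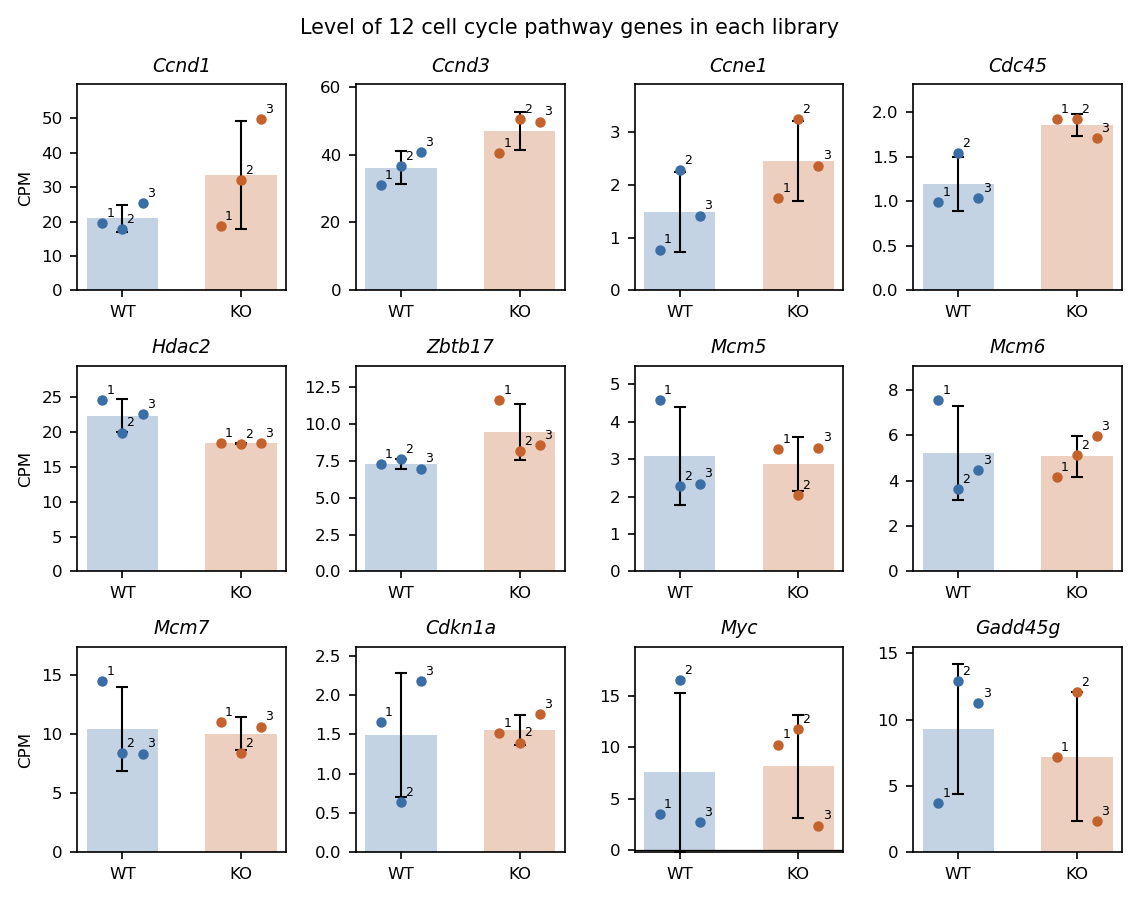
CPM of 12 members in each library, numbered by replicate; bars are group means and error bars the SD of 3 libraries. Ccnd3 and Cdc45 sit higher and Hdac2 lower in knockout at an unadjusted edgeR p under 0.05, whereas wild type replicate 1 is the highest library for Mcm5, Mcm6 and Mcm7.

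Kinases and their regulators had a median log2 fold change of 0.13, with 6 of 9 above 0. With wild type replicates 1 and 3 both left out it was -0.05 with 4 above 0. Cdk4 had 29.9, 35.8 and 36.3 CPM in wild type and 34.0, 38.6 and 38.8 CPM in knockout, a log2 fold change of 0.13 ± 0.11 (SE) with overlapping groups. Cdk2 (chr10:128696037-128705051) had 7.95, 7.76 and 8.51 CPM in wild type and 7.40, 7.09 and 6.78 CPM in knockout. Its groups did not overlap, but at -0.19 ± 0.14 (SE) the edgeR adjusted p was 0.984. Cdk1 counts were 16, 26 and 13 in wild type against 21, 27 and 17, so its groups overlapped. Wee1, the kinase that holds Cdk1 inactive, had 16.7, 28.5 and 26.8 CPM against 29.2, 26.4 and 25.3 CPM. Only wild type replicate 1 stood apart there, and the value of 0.17 became -0.04 without it.

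Inhibitor values lay close to 0. All 5 tested had values above 0, with a median of 0.07, but scaling by library totals left 2 of 5 above 0 and a median of -0.01. Cdkn1b had 14.8, 15.8 and 14.6 CPM in wild type and 17.1, 16.5 and 15.8 CPM in knockout, with a log2 fold change of 0.13 ± 0.11 (SE). Cdkn1a had 1.66, 0.638 and 2.18 CPM in wild type and 1.52, 1.39 and 1.76 CPM in knockout. All its knockout libraries fell inside the wild type range, and the interval of its log2 fold change ran from -0.83 to 0.96. Cdkn2c had 5.52, 3.67 and 2.51 CPM against 3.96, 3.31 and 4.63 CPM, also inside the wild type range.

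Among the 15 retinoblastoma and E2F genes 5 values lay above 0 and 10 below, with a median of -0.06; without wild type replicate 2 it was 0.01 with 8 above 0. Hdac2 (chr10:36974544-37001889) encodes a histone deacetylase that works with retinoblastoma proteins in repression. It had 24.6, 19.9 and 22.5 CPM in wild type and 18.4, 18.2 and 18.5 CPM in knockout, so every knockout library was lower. The log2 fold change was -0.28 ± 0.11 (SE), with an interval from -0.54 to -0.03 and an edgeR adjusted p of 0.935. Its close relative Hdac1 was at -0.06 ± 0.11 (SE). Tfdp2, a dimer partner of E2F factors, had 20.3, 21.1 and 17.7 CPM against 17.3, 18.0 and 14.6 CPM, a value of -0.25 ± 0.13 (SE) with groups that overlap.

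Zbtb17 (chr4:141444659-141467937), which encodes the Myc partner Miz1, had 7.29, 7.65 and 6.98 CPM in wild type and 11.7, 8.19 and 8.59 CPM in knockout. The groups did not overlap, and knockout replicate 1 was the highest. Its log2 fold change was 0.38 ± 0.17 (SE) with an edgeR adjusted p of 0.964. E2f1, the activating E2F, had 3.81, 3.67 and 4.04 CPM in wild type and 4.26, 4.24 and 4.68 CPM in knockout. It too did not overlap, at 0.20 ± 0.17 (SE) and an edgeR adjusted p of 0.988. Rb1, the retinoblastoma gene, was at -0.06 ± 0.17 (SE).

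Myc, a growth-induced transcription factor chosen after its values were seen, varied more between libraries than between genotypes. It had 3.48, 16.5 and 2.73 CPM in wild type and 10.3, 11.8 and 2.37 CPM in knockout. Wild type replicate 2 and knockout replicates 1 and 2 were high, and its highest library was 6.98 times its lowest. The interval of its log2 fold change ran from -2.43 to 2.62. Of the tested members, 8 had more than a ratio of 3 between highest and lowest library, or 7.48%, beside 6.08% of all tested genes: Ccnb1, Ccne1, Cdc20, Cdkn1a, Gadd45g, Myc, Sfn and Tgfb3.

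Replication genes gave no common direction. Of 14 tested, 5 values lay above 0 and 9 below, with a median of -0.05. Without wild type replicate 1 the median was 0.15 with 9 above 0, and with wild type replicates 1 and 3 both left out it was 0.18 with 11 above 0. Wild type replicate 1 was the highest library for 6 of the 14.

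Cdc45 (chr16:18780447-18811992), which activates the MCM helicase, was counted 18, 29 and 19 times in wild type against 33, 33 and 31 times in knockout. As CPM these were 0.993, 1.54 and 1.04 against 1.92, 1.92 and 1.71, without overlap. The log2 fold change was 0.63 ± 0.28 (SE), with an interval from 0.00 to 1.26 and an edgeR adjusted p of 0.962. Orc6, an origin recognition subunit chosen after its values were seen, had 3.53, 3.98 and 3.49 CPM against 4.26, 4.82 and 4.02 CPM. The groups were close but did not overlap, and its value was 0.25 ± 0.18 (SE). Orc5, another such subunit, had 20.4, 14.1 and 14.8 CPM against 14.3, 13.3 and 13.5 CPM, with wild type replicate 1 highest.

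Of the 6 MCM genes, the 3 with printed promoters had that library as their highest, and the other 3 did not. Orc3 and Rbl1, which also hold the E2F letters, were highest there too. Other members with these letters were highest elsewhere, such as Cdk1 and Cdc25a in knockout replicate 2. Cdk2, E2f3 and Rbx1 were highest in wild type replicate 3. A link between the letters and the highest library was not tested. Mcm5 had 4.58, 2.28 and 2.35 CPM in wild type and 3.26, 2.03 and 3.30 CPM in knockout. Mcm6 had 7.56, 3.61 and 4.47 CPM against 4.14, 5.11 and 5.95 CPM. Mcm7 had 14.5, 8.40 and 8.35 CPM against 11.0, 8.43 and 10.6 CPM. In each the knockout values lay within or close to the wild type range. Mcm3, Mcm4, Mcm5 and Mcm7 were chosen after their values were seen. Mcm3 had 5.41, 5.69 and 4.58 CPM against 3.91, 4.53 and 5.62 CPM, and Mcm4 had 4.08, 3.35 and 4.26 CPM against 2.97, 3.78 and 5.51 CPM. Both overlap. For Mcm6 the log2 fold change was -0.04 ± 0.28 (SE), and it was 0.32 without wild type replicate 1. Mcm2 and Mcm4 were highest in knockout replicate 3, and Mcm3 in wild type replicate 2. Mcm2 had 4.03, 2.44 and 3.00 CPM against 3.15, 4.01 and 4.35 CPM, and a value of 0.28 ± 0.24 (SE). Pcna had 34.6, 28.9 and 35.1 CPM against 32.6, 27.1 and 30.0 CPM, and a value of -0.13 ± 0.12 (SE).

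**Figure D4:**
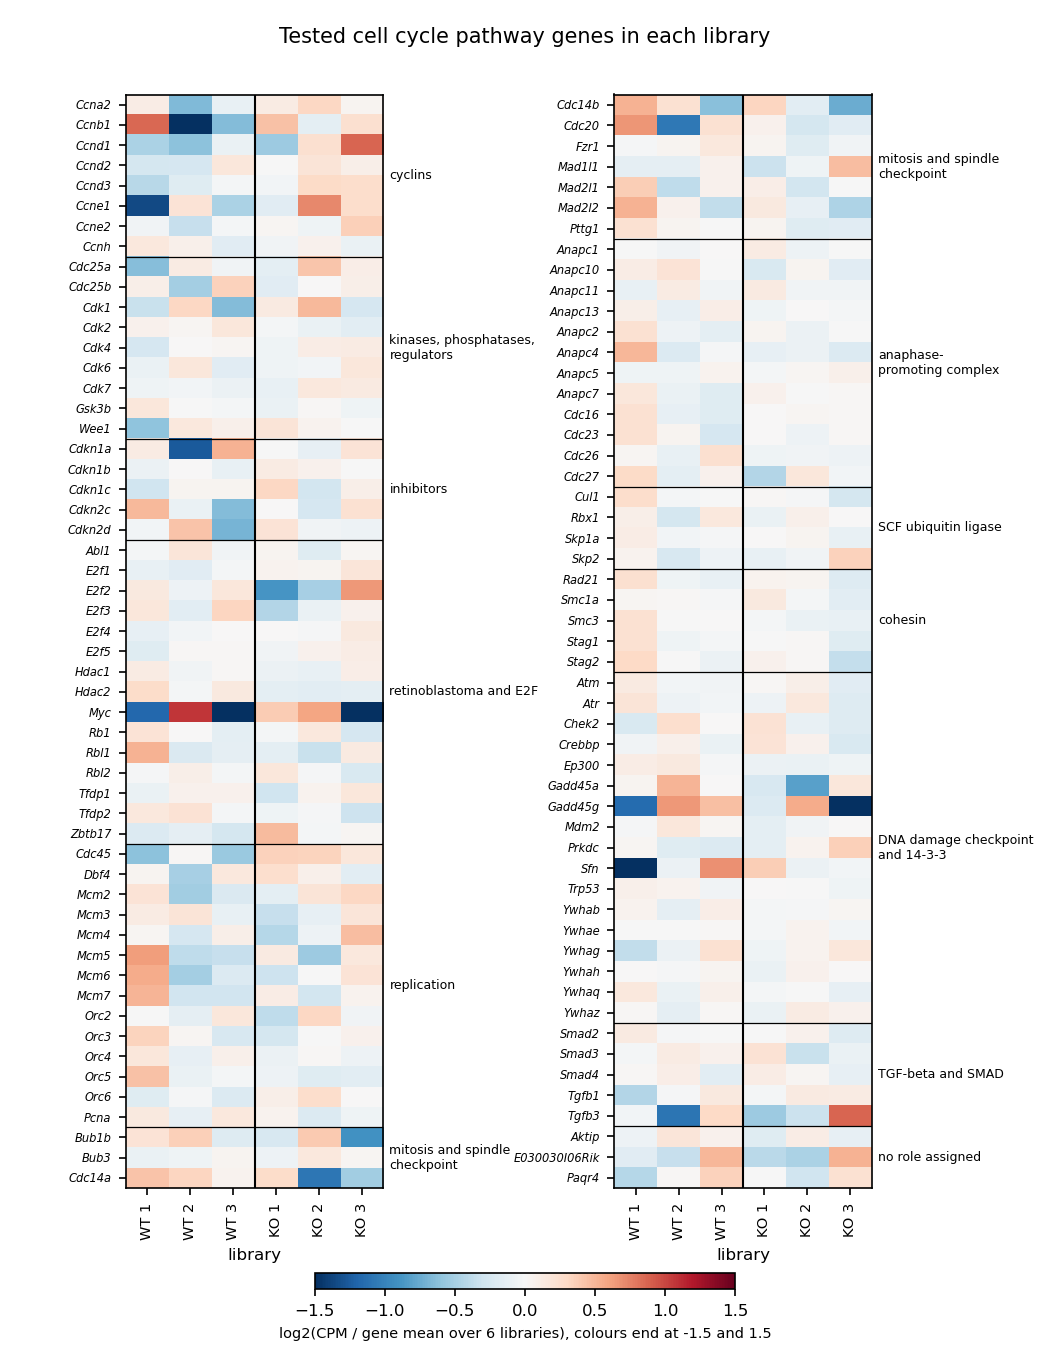
Log2 of CPM over the gene's mean over the 6 libraries, for the 107 tested genes (rows, by role) in the wild type (WT 1 to 3) and knockout (KO 1 to 3) libraries; red is above and blue below the gene's mean. Wild type replicate 1 is the highest library for 37 of the 107 genes.

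Mitosis genes gave the lowest median of the role groups, -0.21, with 2 of 10 values above 0 and none called. Without wild type replicate 1 it was -0.00 with 4 above 0, and no longer the lowest, with retinoblastoma and E2F genes at -0.06. Pttg1 (chr11:43420248-43426248) had 34.8, 30.7 and 29.7 CPM in wild type and 30.6, 26.3 and 26.3 CPM in knockout, a value of -0.19 ± 0.11 (SE). Only knockout replicate 1 reached into the wild type range. Bub1b had 13, 15 and 10 counts against 9, 14 and 6, and Cdc20 had 16, 5 and 12 against 10, 8 and 9. Their intervals, from -1.26 to 0.64 and from -1.28 to 0.85, show how little these counts can resolve. Cdc14b, a phosphatase gene chosen after its values were seen, had 37.6, 30.6 and 16.9 CPM in wild type and 32.7, 23.4 and 15.6 CPM in knockout. Replicate 3 was the lowest library in both groups. Its relative Cdc14a, with the most negative value of the tested members, had 1.49, 1.38 and 1.15 CPM against 1.34, 0.523 and 0.771 CPM. The groups of Cdc14a overlapped through knockout replicate 1. Bub3 had 26.3, 27.0 and 29.0 CPM against 26.8, 31.4 and 28.9 CPM, with overlap.

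Values of the anaphase-promoting complex and the SCF genes were small, and the 4 SCF genes had a median of -0.03 with 1 above 0. The 12 subunits of the complex had a median of -0.03, with 5 above 0, and ran from -0.26 to 0.06. All 12 lay below 0 when library totals were used as scaling, with a median of -0.11, and 9 lay above 0 with wild type replicates 1 and 3 both left out. Anapc13 had 28.9, 25.0 and 29.2 CPM against 26.1, 27.3 and 26.7 CPM, and Cdc26 had 28.3, 25.7 and 32.7 CPM against 26.4, 26.7 and 26.4 CPM. In both the knockout libraries lay inside the wild type range. Skp1a had 184.1, 165.4 and 168.8 CPM against 170.8, 175.6 and 158.2 CPM, and a value of -0.04 ± 0.09 (SE). Rbx1, the RING subunit shared by such ligases, had 31.0, 24.2 and 32.7 CPM against 27.3, 30.7 and 29.2 CPM, again inside the wild type range.

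Cohesin genes, whose ring holds sister chromatids together, had 5 of 5 values below 0 and a median of -0.11. Knockout replicate 3 was the lowest library for all 5 and wild type replicate 1 the highest for 4. The median was -0.02 without wild type replicate 1 and -0.04 without knockout replicate 3. Smc3, chosen after its values were seen, had 25.2, 21.5 and 21.7 CPM in wild type and 21.0, 20.1 and 19.9 CPM in knockout, without overlap. Its log2 fold change was -0.16 ± 0.11 (SE) with an edgeR adjusted p of 0.984. Stag2 had 83.1, 67.1 and 63.5 CPM against 70.5, 68.4 and 52.8 CPM, and Rad21 had 52.8, 42.7 and 41.1 CPM against 46.1, 45.7 and 39.0 CPM, both with overlap.

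In the DNA damage and 14-3-3 group 5 of 17 values lay above 0, with a median of -0.04; without knockout replicate 3 it was 0.01 with 10 above 0. Gadd45a, a stress-induced growth arrest gene, had 6.02, 8.34 and 5.89 CPM in wild type and 4.96, 3.31 and 6.55 CPM in knockout. Its groups overlapped, and its value was -0.45 ± 0.25 (SE). Gadd45g, of the same family and chosen after its values were seen, had 3.70, 12.9 and 11.2 CPM against 7.17, 12.1 and 2.37 CPM, with high and low libraries in both groups. Ep300, a histone acetyltransferase also chosen in that way, had 24.4, 25.1 and 22.3 CPM against 21.3, 21.1 and 21.7 CPM, without overlap, and a value of -0.16 ± 0.10 (SE). Mdm2, the p53 inhibitor and target, was at -0.12 ± 0.11 (SE).

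Chek1, a checkpoint kinase left untested by the filter, was counted 30, 5 and 9 times in wild type against 8, 4 and 10 times, so wild type replicate 1 held most of the wild type reads. At the other end, Ywhae had 219.6, 219.8 and 222.8 CPM against 216.2, 227.6 and 214.7 CPM. Its interval from -0.20 to 0.19 is narrow beside those of the mitosis genes. Ywhab, another 14-3-3 gene, had 117.4, 102.8 and 121.0 CPM against 110.7, 112.2 and 115.7 CPM. The TGF-beta and SMAD genes, which carry a growth-restraining signal to hepatocytes, had 3 of 5 values above 0 and a median of 0.02. Tgfb1 had 8.50, 11.4 and 12.7 CPM against 11.3, 12.7 and 12.6 CPM, with overlap, and Smad4 was at 0.02 ± 0.11 (SE).

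Proliferation genes outside the pathway were read in the same fit. Of 37 such genes 24 were tested, 13 with values above 0 and 11 below, with a median of 0.07, and 0 passed. Mki67, the common proliferation marker, was counted 40, 15 and 26 times in wild type against 14, 20 and 26 times in knockout. Top2a, the topoisomerase of dividing cells, had 27, 16 and 25 against 15, 13 and 25. In both, wild type replicate 1 was the highest library. Foxm1, a regulator of mitotic genes, had 6, 4 and 10 against 9, 6 and 9. Birc5 was at 0.36 ± 0.43 (SE) and Rrm2, of nucleotide synthesis, at 0.11 ± 0.34 (SE). Of 20 p53 target genes 17 were tested, 7 with values above 0 and 10 below, with a median of -0.03 and 0 passed.

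Some libraries were set apart from the others of their group. Wild type replicate 1 was the highest library for 37 of the 107 members, or 34.6%, beside 24.5% of all tested genes. By role this held for 6 of 14 replication, 6 of 10 mitosis, 6 of 12 anaphase-promoting complex and 4 of 5 cohesin genes. The intestinal marker sum was 130.6 CPM in that library and 127.9 CPM in wild type replicate 3. Fabp2 alone gave 121.65 and 115.39 CPM of these. Wild type replicate 3 was the highest library for 13.1% of members, beside 17.6% of all tested genes. The part of the intestinal markers in the member values was not tested. The summed Kupffer cell markers were higher in every knockout library, but 3 of the 6 markers (Vsig4, Timd4 and C1qa) overlapped between groups. Epor (erythroid) and Acta2 (smooth muscle) were also higher in every knockout library, though the sums of their lists overlapped. Reln (stellate cell) was lower in every knockout library. The part of any of these cell types in the cyclin values was not tested. With wild type replicates 1 and 3 both left out, the role medians not given so above were 0.13 for SCF (3 of 4 above 0), -0.04 for TGF-beta and SMAD (2 of 5) and 0.05 for inhibitors (4 of 5). They were -0.14 for mitosis (4 of 10), -0.04 for cohesin (1 of 5), -0.01 for DNA damage and 14-3-3 (8 of 17) and -0.02 for retinoblastoma and E2F (7 of 15). The ratio of highest to lowest library had a median of 1.40 over members and 1.43 over all tested genes.

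Counting could also mix neighbours. Of the 125 genes, 36 overlap another gene of the table in their span from start to end, introns included. Whether reads were counted by strand is not stated in the labels or the table. Among the genes with the smallest p, Ccnd3 overlaps Bysl, Ccnd1 overlaps LTO1, Cdc45 overlaps Ufd1 and Zbtb17 overlaps Spen. Their counts may hold reads of those genes where exons are shared, and shared exons were not examined.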

How the data were processed

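RNA from 6 mouse liver samples was enriched for messenger RNA and sequenced, per the labels' protocols. Per the submitters' processing notes, the tools were DESeq2, RSEM, Bowtie2 and HISAT. Versions, read length, strand and build are not given in these sources. All 125 members were matched to GRCm38.p6 by gene ID, and their chromosome names were taken from it. Of their gene starts 79 were equal to that build, and of their gene ends 75. Per the file headers, the authors deposited expected counts, not normalized (92.3% to 92.9% whole numbers), and TPM values per library. They also deposited a log2 fold change with a p-value and a q-value, used only where their table is named. A further 21 columns of values were not used.

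Expected counts were rounded, filtered with filterByExpr (minimum count 10), scaled by TMM (factors 0.955 to 1.05) and fitted in R 4.3.3 with edgeR 4.0.16. Its robust quasi-likelihood test was run with no block; p-values were Benjamini-Hochberg adjusted over 12033 genes at a threshold of 0.05. The steps were tested on simulated data. CPM uses TMM-scaled totals and compares libraries; TPM compares genes only, since its ratio of knockout to wild type had a median of -0.14 on the log2 scale. The biological coefficient of variation was 15.8%. Intervals are at 95%, and floors cover counting error only.

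The members, role groups and lists were chosen with earlier results of these data known. Named genes were the 5 with the smallest p in each direction, the 2 with the highest TPM in each role, a set of 23 central cycle genes and 5 proliferation markers; any other gene named was chosen after its values were seen. Alternatives were 3 other scalings, no filter, DESeq2 1.42.0, limma-voom (limma 3.58.1), the replicate number as a block and leaving out each library; leaving out wild type replicates 1 and 3 together was added after seeing the data.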

Additional observations from a re-analysis of the deposited data

How the results depend on the processing

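No member was called under any alternative run, with smallest adjusted p from 0.183 with the replicate block to 1.000, while the number of genes called over the whole table varied. It was 28 with DESeq2, 34 with the replicate block, 1 to 5 with 1 library left out (5 without knockout replicate 1) and 0 when wild type replicates 1 and 3 were both left out, which leaves 1 wild type library assumed to vary like the others. At an unadjusted p under 0.05 that last fit held 279 genes. The samples share only a replicate number: deviations of same-numbered libraries correlated at 0.318, 0.069 and 0.386, and each library correlated best with its own number. With the replicate block 6 members had an unadjusted p under 0.05, a count not set beside its share over all genes. The median over members was -0.111 with library totals, -0.052 to 0.007 with 1 library left out (highest without wild type replicate 1) and 0.025 with wild type replicates 1 and 3 both left out; the cause was not tested.

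Log2 fold changes that turned sign are listed here only for the genes named by smallest p, highest TPM or a fixed set. None of those listed was called in any fit. Turns of other members are not listed, although members above 0 went from 44 to 30 of 107 with library totals. Among the named genes, the turns with library totals were Cdkn2c at -0.046, Smad4 at -0.061 and Cdkn1a at -0.011. With limma-voom they were Rbx1 at 0.001 and Mcm6 at 0.023, and with the replicate block Mcm6 at 0.002. With wild type replicates 1 and 3 both left out they were Wee1 at -0.094, Hdac1 at 0.007, Pcna at 0.039, Anapc13 at 0.080, Cdc26 at 0.030, Skp1a at 0.011, Rbx1 at 0.251, Rad21 at 0.018, Ywhab at 0.122, Smad4 at -0.105, Cdk1 at -0.167, Mcm6 at 0.477, Cdc20 at 0.922, Mki67 at 0.5 and Top2a at 0.229. With 1 library left out, signs turned within these ranges: Ccnh (-0.148 to 0.006), Wee1 (-0.045 to 0.313), Skp1a (-0.070 to 0.004), Rbx1 (-0.124 to 0.075), Rad21 (-0.132 to 0.050), Ywhab (-0.072 to 0.035), Rb1 (-0.160 to 0.046), Mcm6 (-0.237 to 0.322). The others were Cdc20 (-0.567 to 0.158), Mki67 (-0.658 to 0.039), Cdkn2c (-0.207 to 0.354), Ccnb1 (-0.090 to 1.604), Cdkn1a (-0.293 to 0.449), Rrm2 (-0.221 to 0.392), Smad4 (-0.050 to 0.088) and Ywhae (-0.034 to 0.008). Low counts limit the mitotic genes most.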
